A study of Rattus norvegicus with 17 samples.

Results

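The genes described here encode the hyaluronan system, the syndecans and the small proteoglycans of the fetal rat gubernaculum, the ligament that anchors the testis near the abdominal wall. They were chosen by name, as every probe set that the array platform's annotation gives to 1 gene alone among Has2, Hyal1, Hyal2, Cd44, Vcan, Lum, Dcn, Bgn, Sdc1 and Sdc2. Of these 10 genes, 9 had at least 1 such probe set, with 17 probe sets in all out of 31099 on the array, and Hyal1 had none and was not analysed here. All 17 probe sets passed the filter on low values and were tested among 18938 probe sets.

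The tissue came from male Long Evans rats on gestational day 17, and each replicate held 2 gubernaculum bulbs cultured together, without the cord, on a filter insert at the surface of a medium with charcoal-stripped serum and an insulin supplement. Every culture spent 24 h without hormone and then a further 24 h in control medium (6 replicates), with 10 nM Insl3 (3 replicates used) or with 100 nM Insl3 (6 replicates). Insl3, insulin-like 3, is the peptide hormone of fetal Leydig cells that acts on the gubernaculum. The series holds 5 arrays at 10 nM, and its submitters set aside replicates 4 and 5 as outliers by principal component analysis and by a low yield of labelled cRNA, 25.66 and 33.68 µg.

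Each replicate was hybridised to 1 Affymetrix array, and the values are GCRMA expression values. They were taken to be on the log2 scale, where a difference of 1 is a doubling. The base is not stated and was inferred from the usual output of GCRMA and the range of values. The 15 arrays used correlated with each other at 0.978 to 0.996, and their number limits the precision. Bulbs are pieces of tissue with several cell types, so fewer cells of a type and less RNA per cell cannot be told apart. The fibrillar collagen genes Col1a1, Col1a2 and Col3a1, which mark connective tissue cells, averaged 14.90, 15.35 and 15.81 in control cultures. Among markers named for the gubernaculum itself, the Insl3 receptor gene Rxfp2 had no probe set of its own in the annotation, and the oestrogen receptor gene Esr1 was below the filter.

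Hyaluronan is a long unsulfated sugar chain that holds water in the matrix. It is made at the cell membrane by hyaluronan synthases, cut by hyaluronidases, bound by the surface receptor CD44 and loaded with versican, a large chondroitin sulfate proteoglycan. Decorin, biglycan and lumican are small leucine-rich proteoglycans that bind collagen fibrils, and syndecans are membrane proteins whose heparan sulfate chains bind growth factors. The gubernaculum bulb swells before the testis descends, and an increase of hydrated matrix is a known feature of that swelling.

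At 100 nM Insl3 the 2 syndecan genes rose together with the hyaluronan synthase gene Has2, while lumican and decorin fell. By the probe set with the highest mean for each gene, which stands for the gene below, 3 of 9 genes rose, 2 fell and 4 did not pass the test (limma, Benjamini-Hochberg adjusted p under 0.05). The calls of Has2 and Dcn lay close to the threshold (adjusted p = 0.0486 and 0.0423). They were lost in 12 and 11 of the 15 fits that each left out 1 array, whereas those of Lum, Sdc1 and Sdc2 were kept in all 15. Counted by probe set, 6 of 17 rose and 2 fell, but all those that rose except that of Has2 were repeat readings of Sdc1 and Sdc2 on the same arrays. The background was 10.9% of all tested probe sets, with 6.51% higher and 4.39% lower, and 12.1% of 10665 genes counted by their standing probe set. The genes were chosen with earlier results of these data known, so a share above the background at either dose is no independent result. The median change of the 17 probe sets was 0.05, against -3e-04 over all probe sets. By gene the medians were 0.10 for the 9 genes and 0.02 over all genes.

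At 10 nM the standing probe sets of Has2, Sdc1 and Sdc2 rose and that of Dcn fell, and 5 genes did not pass the test. By probe set 4 of 17 rose and 2 fell, against a background of 10.6% called (4.88% higher and 5.70% lower), or 8.67% counted by gene. These 6 calls became 2, 1 and 3 when 10 nM replicate 1, 2 or 3 was left out, so they depended on single arrays of that dose. The median change was 0.24 over the 17 probe sets and 0.03 over all probe sets, and by gene 0.24 over the 9 genes and 0.06 over all genes. Both doses were compared with the same 6 control arrays.

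**Figure D1:**
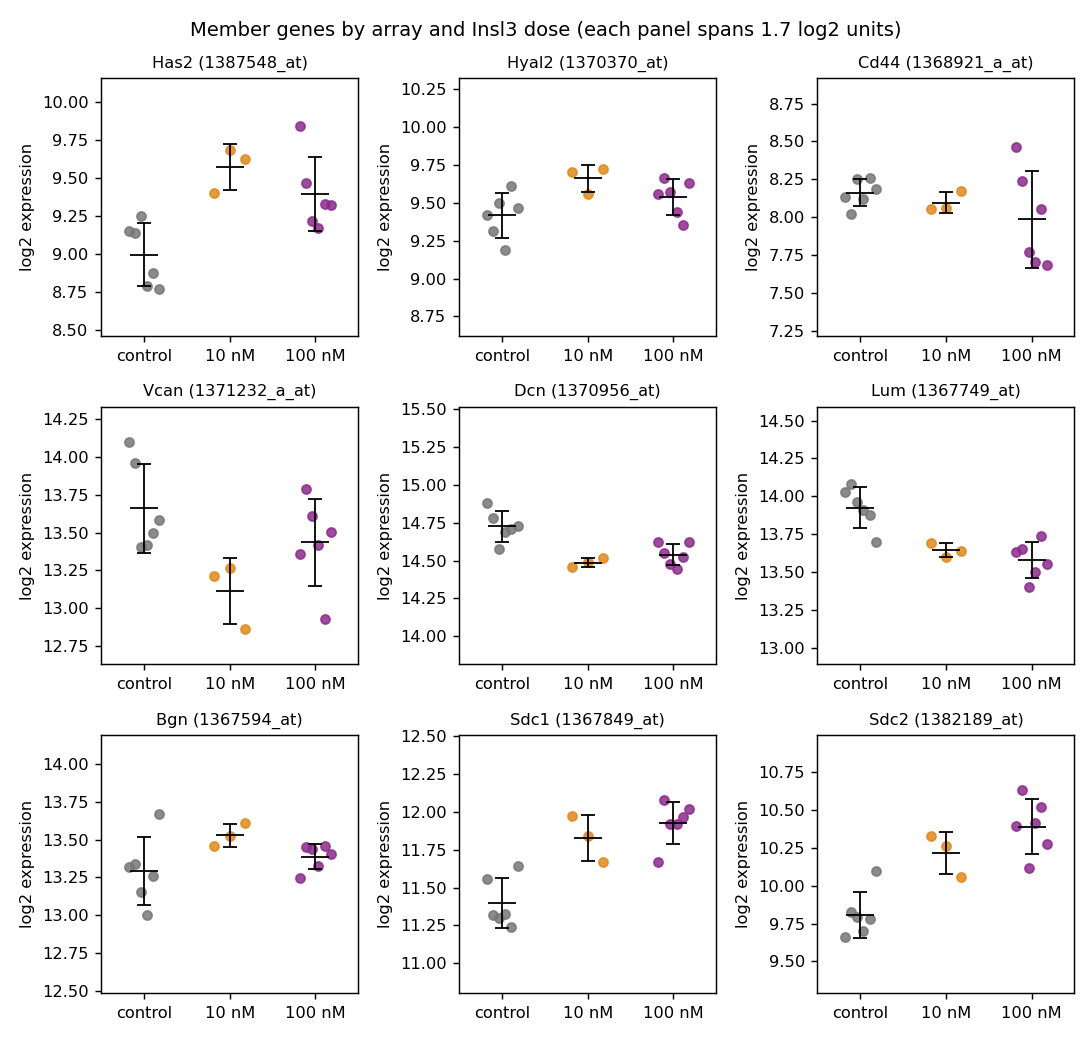
Log2 expression (vertical axis) of the standing probe set of the 9 measured genes in control, 10 nM and 100 nM Insl3 cultures (n = 6, 3 and 6). Each point is 1 array and the black marks are the mean and SD; the panels share 1 span but not 1 level, and both Sdc1 and Sdc2 at 100 nM lie wholly above the controls.

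Has2 encodes the hyaluronan synthase that makes long chains in embryonic mesenchyme. Its probe set 1387548_at read 8.77, 9.005 and 9.25 (lowest, median and highest) in control cultures, 9.403, 9.69 and 9.63 in the 3 cultures at 10 nM, and 9.17, 9.33 and 9.84 (lowest, median and highest) at 100 nM. All 3 cultures at 10 nM, a separation found for 9.15% of tested probe sets, and 4 of the 6 at 100 nM lay above every control. Has2 was 1.49-fold higher at 10 nM than in control (0.58 ± 0.15 log2 units, SE; adjusted p = 0.0216) and 1.32-fold higher at 100 nM (0.40 ± 0.12; adjusted p = 0.0486). The call at 100 nM lay close to the threshold and was kept, of the 15 fits that left out 1 array, only without control replicate 3 or 100 nM replicate 3 or 4; elsewhere adjusted p reached 0.107. It also ended without the filter (adjusted p = 0.0975), after quantile normalization again (0.0539), in a fit of the 2 groups alone (0.0754) and with the set-aside arrays (0.0642). At 10 nM it did not survive leaving out replicate 2 or 3 of that dose, with adjusted p up to 0.101. Has1 and Has3, the other synthase genes, had no probe set of their own in the annotation.

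Hyal2 encodes a hyaluronidase anchored to the cell surface. Its level averaged 9.42 ± 0.15 in control, 9.66 ± 0.091 at 10 nM and 9.54 ± 0.12 at 100 nM (SD), and the groups overlapped. The changes of 0.24 at 10 nM (95% interval 0.045 to 0.44) and 0.12 at 100 nM (-0.044 to 0.28) did not pass the test.

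Cd44, the gene of the main hyaluronan receptor, was read by 2 probe sets whose suffix _a_at marks probes that match several transcripts of 1 gene. Probe set 1368921_a_at averaged 8.16 in control, 8.10 at 10 nM and 7.99 at 100 nM. Neither dose passed the test, with changes of -0.07 (95% interval -0.38 to 0.25) and -0.17 (-0.43 to 0.085). The spread grew at 100 nM, where the values ran from 7.68 to 8.47, against 8.02 to 8.26 in control. The second probe set, 1387952_a_at, changed by 0.10 at 10 nM and 0.05 at 100 nM and was not called.

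**Figure D2:**
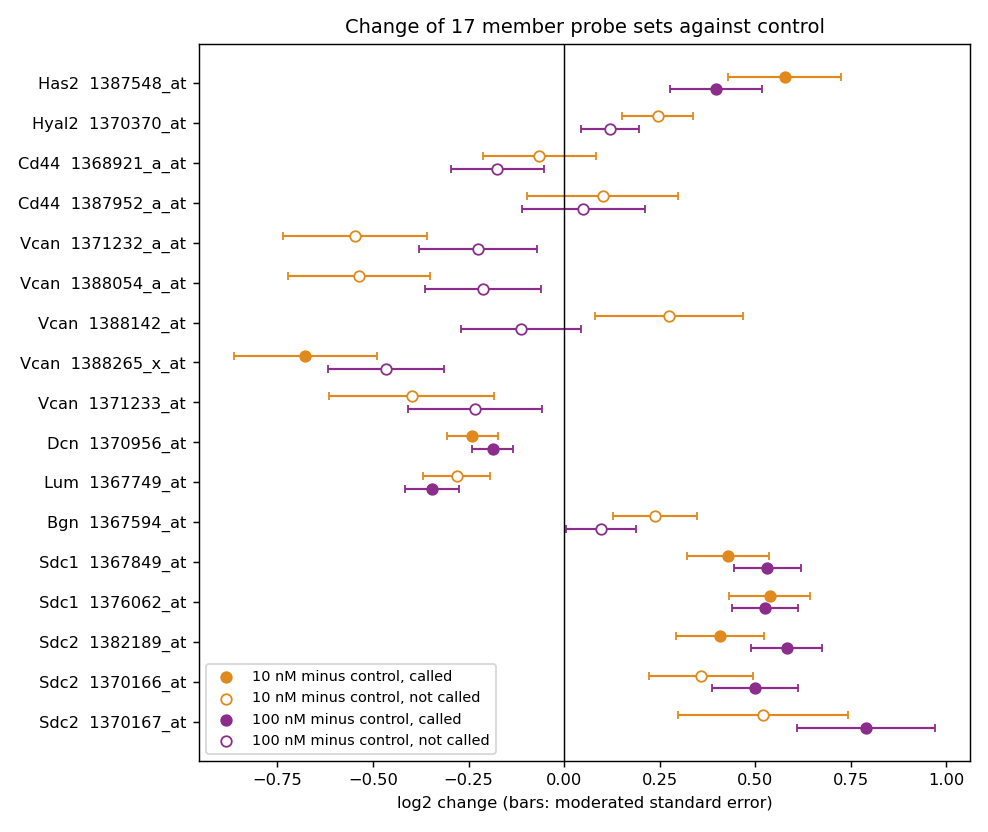
Log2 change against control (horizontal axis) of the 17 probe sets of the 9 genes at 10 nM and 100 nM Insl3, with limma's moderated standard error as bars; filled points passed the test and open points did not. The Sdc1 and Sdc2 probe sets all lie to the right of 0, and the Vcan probe set 1388142_at is alone among the 5 of its gene in lying to the right of 0 at 10 nM.

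Vcan encodes versican, which binds hyaluronan through its amino-terminal end. Its standing probe set, 1371232_a_at, read 13.41, 13.54 and 14.10 (lowest, median and highest) in control cultures, 13.21, 13.27 and 12.86 in the 3 cultures at 10 nM, and 12.93, 13.46 and 13.79 at 100 nM. All 3 arrays at 10 nM lay below every control, which held for 7.81% of all tested probe sets, but the change of -0.55 ± 0.19 did not pass the test (adjusted p = 0.0854). It was called with the set-aside arrays (-0.85, adjusted p = 0.0443), with replicates 1, 2 and 6 against 3, 4 and 5 as a term (-0.60, 0.018) and without 100 nM replicate 5 (0.0496). The split used as a term came from an earlier component analysis, and no label names it as a batch. At 100 nM the groups overlapped and the change was -0.23 ± 0.15 (adjusted p = 0.385). Probe set 1388054_a_at gave nearly the same numbers, -0.54 at 10 nM and -0.21 at 100 nM, and was called at 10 nM in the last 2 of these settings (0.0152 and 0.044).

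A further Vcan probe set, 1388265_x_at, fell at 10 nM by 0.68 ± 0.19 (adjusted p = 0.0323), with 8.74, 8.71 and 8.35 at 10 nM below all control arrays, which ran from 9.03 to 9.88. That call was lost without control replicate 2 or any 1 of the 10 nM arrays (adjusted p up to 0.176), without the filter (0.0717), in a fit of the 2 groups alone (0.0695) and with the set-aside arrays (0.0662). At 100 nM its change of -0.47 ± 0.15 stayed short of the threshold (adjusted p = 0.0671), but passed after quantile normalization again (0.0439), with the replicate sets as a term (0.0275) and without control replicate 6 or 100 nM replicate 2 (0.0493 and 0.0472). The suffix _x_at marks a set with probes that can also match other transcripts. Probe set 1371233_at lay near the floor of the scale, with means of 2.56, 2.16 and 2.33, and carries no usable change.

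The fifth Vcan probe set, 1388142_at, did not follow the others at 10 nM. It averaged 12.66 in control, 12.94 at 10 nM and 12.55 at 100 nM, so its change at 10 nM was 0.27 ± 0.19 (adjusted p = 0.428). Taken within each array, 1388142_at minus 1371232_a_at lay between -1.09 and -0.82 in control cultures, at -0.24, -0.21 and -0.08 at 10 nM, and between -1.10 and -0.59 at 100 nM. The 10 nM arrays thus stood apart from both other groups with no overlap. In a fit of such differences over 3880 pairs of probe sets of 1 gene, added after the values were seen, the difference was 0.82 ± 0.12 higher at 10 nM than in control (limma, adjusted p = 2.28e-04). It was 0.11 ± 0.098 higher at 100 nM than in control, which did not pass the test (adjusted p = 0.492). Between the doses, 100 nM minus 10 nM was -0.71 ± 0.12 (adjusted p = 0.00323).

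Many genes showed such a split at 10 nM. Of the 3880 pairs, 26.8% were called at 10 nM against control and 12.9% between the doses, against 3.04% at 100 nM against control. The same measure gave no call for the pairs of Cd44, Sdc1 and Sdc2 and the remaining 3 pairs of Vcan. Has2, Hyal2, Lum, Dcn and Bgn had no second probe set, so their values at 10 nM could not be checked in this way. The labels give an RNA integrity number of 10 for every control and 100 nM culture. At 10 nM they give 10 for replicate 3 and for the set-aside replicates 4 and 5, and none for replicates 1 and 2. The part of RNA quality in these differences was not tested. Of the set-aside arrays, replicate 5 was at -0.94 and replicate 4 at -0.07.

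**Figure D3:**
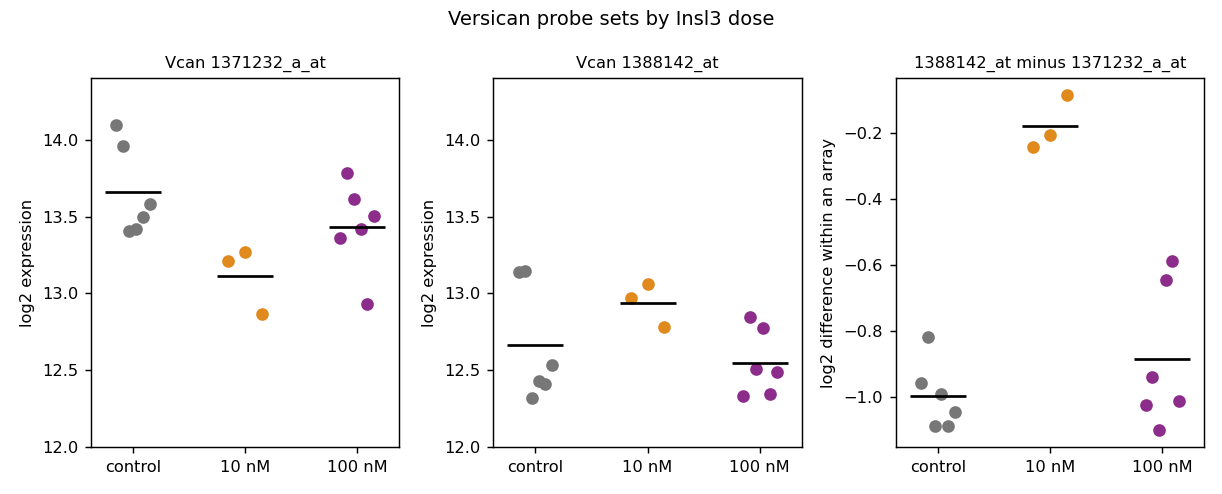
Log2 expression of the Vcan probe sets 1371232_a_at (left) and 1388142_at (middle) and their difference within each array (right) in control, 10 nM and 100 nM Insl3 cultures. Points are arrays and lines are group means; at 10 nM the differences run from -0.24 to -0.08, above all arrays of the other groups.

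Lum encodes lumican, a keratan sulfate proteoglycan of collagen fibrils. Probe set 1367749_at read 13.70, 13.94 and 14.08 (lowest, median and highest) in control cultures, 13.69, 13.60 and 13.64 in the 3 cultures at 10 nM, and 13.40, 13.59 and 13.74 at 100 nM. At 100 nM 5 of 6 arrays lay below the lowest control. All 3 did at 10 nM, which held for 7.81% of all tested probe sets. Lum fell at 100 nM by 0.35 ± 0.071 and was 1.27-fold lower (adjusted p = 0.00777), and the call held in each of the 15 fits that left out 1 array, but not with the set-aside arrays (adjusted p = 0.0713). At 10 nM the change of -0.28 ± 0.088 just missed the threshold (adjusted p = 0.0568). It was called with another variance model (0.0348), after quantile normalization again (0.0405), with the set-aside arrays (-0.42; 0.0241) and without control replicate 6 or 100 nM replicate 3 or 5 (0.0134 to 0.0498).

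Dcn encodes decorin, which binds collagen and growth factors. Probe set 1370956_at read 14.57, 14.72 and 14.88 (lowest, median and highest) in control, 14.46, 14.49 and 14.52 in the 3 cultures at 10 nM, and 14.45, 14.54 and 14.62 at 100 nM. All 3 arrays at 10 nM and 4 of 6 at 100 nM lay below every control. At 10 nM such a separation downwards was found for 7.81% of tested probe sets. Dcn was 1.18-fold lower at 10 nM (-0.24 ± 0.067; adjusted p = 0.0343) and 1.14-fold lower at 100 nM (-0.19 ± 0.055; adjusted p = 0.0423). These small changes depended on single arrays: leaving out control replicate 1, 2 or 5 or any 10 nM array ended the call at 10 nM (adjusted p up to 0.125). At 100 nM it was kept only without control replicate 3 or 6 or 100 nM replicate 1 or 6, and otherwise reached 0.0909. It ended at both doses after quantile normalization again (0.0736 and 0.0586) and in fits of the 2 groups alone (0.0695 and 0.0708), and at 100 nM with the set-aside arrays (0.119).

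Bgn, the biglycan gene and the closest relative of Dcn, was not called. It averaged 13.29 ± 0.22 in control, 13.53 ± 0.077 at 10 nM and 13.39 ± 0.083 at 100 nM (SD). Its change at 10 nM was 0.24, with an interval that reached from 0.0012 to 0.48 (unadjusted p = 0.049; adjusted p = 0.208), and at 100 nM it was 0.10 (-0.097 to 0.29). The 9 Insl3 arrays used lay within the range of the control arrays, 13.01 to 13.67. Without control replicate 6 the change at 10 nM was 0.31 and was called (adjusted p = 0.022).

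Sdc1 encodes syndecan-1, the syndecan best known from epithelia and, in mouse embryos, also present in condensing mesenchyme. Its standing probe set, 1367849_at, read 11.24, 11.32 and 11.64 (lowest, median and highest) in control, 11.97, 11.84 and 11.67 in the 3 cultures at 10 nM, and 11.67, 11.94 and 12.08 at 100 nM. None of the 9 Insl3 arrays used overlapped the controls. Such a separation upwards was found for 9.15% of tested probe sets at 10 nM and 3.48% at 100 nM. Sdc1 was 1.35-fold higher at 10 nM (0.43 ± 0.11; adjusted p = 0.0197) and 1.45-fold higher at 100 nM (0.53 ± 0.088; adjusted p = 0.0019).

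The second Sdc1 probe set, 1376062_at, gave 0.54 ± 0.11 at 10 nM (adjusted p = 0.00482) and 0.53 ± 0.086 at 100 nM (adjusted p = 0.00179). Its values at 10 nM, 10.18, 10.10 and 10.06, and its range at 100 nM, 9.84 to 10.24, again lay above the control range of 9.30 to 9.77. Both calls of this probe set held in all 15 fits without 1 array, as did the call of 1367849_at at 100 nM. At 10 nM the call of 1367849_at was not kept when 10 nM replicate 1 or 2 was left out (highest adjusted p = 0.112).

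Sdc2 encodes syndecan-2, the syndecan of fibroblasts and other mesenchymal cells. Its standing probe set, 1382189_at, read 9.66, 9.78 and 10.09 (lowest, median and highest) in control, 10.33, 10.26 and 10.06 in the 3 cultures at 10 nM, and 10.11, 10.40 and 10.63 at 100 nM. All 6 arrays at 100 nM lay above the highest control, and 2 of the 3 at 10 nM did. A separation such as that at 100 nM was found for 3.48% of tested probe sets. Sdc2 was 1.497-fold higher at 100 nM (0.58 ± 0.093; adjusted p = 0.00153), a call held in all 15 fits without 1 array. At 10 nM it was 1.33-fold higher (0.41 ± 0.11; adjusted p = 0.0351), and that call was lost without control replicate 1, 3, 4 or 5 or 10 nM replicate 1 or 2 (up to 0.153), without the filter (0.0637), after quantile normalization again (0.0558) and with probe sets averaged (0.0795).

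The other 2 Sdc2 probe sets rose at 100 nM as well. Probe set 1370166_at rose by 0.50 ± 0.11 (adjusted p = 0.0125), with 4 of 6 arrays above the highest control, and 1370167_at rose by 0.79 ± 0.18 (adjusted p = 0.014), with 5 of 6. At 10 nM they changed by 0.36 ± 0.14 and 0.52 ± 0.22 and were not called (adjusted p = 0.122 and 0.167), although 1370166_at was called there without control replicate 6 (0.0156). Sdc3 and Sdc4, the other syndecan genes, did not pass the test at either dose. Sdc3 changed by -0.05 at 10 nM and -0.16 at 100 nM, and Sdc4 by 0.06 and 0.07.

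The stretches just upstream of Sdc1, which rose, and Lum, which fell, are shown because these were the members called by their standing probe set that had an entry in the RefSeq promoter table of rat assembly GRCr8. That table matched 6 of the 10 genes, namely Hyal1, Hyal2, Cd44, Vcan, Lum and Sdc1, and Has2, Dcn, Bgn and Sdc2 were not matched. Each run is the 250 bases before the annotated start of transcription, 5′ to 3′ on the gene's strand, at chr6:37281791-37282040 (plus strand) for Sdc1 and chr7:34245456-34245705 (plus strand) for Lum. Capitals mark matches on either strand to TGACGTCA or its first part TGACG, the cyclic AMP response element and its shorter core, to TATAA, the TATA box core, or to GGGCGG, the GC box.
Sdc1: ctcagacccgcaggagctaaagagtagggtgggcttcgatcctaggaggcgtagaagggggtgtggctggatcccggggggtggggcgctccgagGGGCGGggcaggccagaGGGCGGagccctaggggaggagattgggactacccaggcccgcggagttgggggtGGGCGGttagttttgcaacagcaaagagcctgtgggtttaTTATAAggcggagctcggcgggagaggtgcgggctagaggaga
Lum: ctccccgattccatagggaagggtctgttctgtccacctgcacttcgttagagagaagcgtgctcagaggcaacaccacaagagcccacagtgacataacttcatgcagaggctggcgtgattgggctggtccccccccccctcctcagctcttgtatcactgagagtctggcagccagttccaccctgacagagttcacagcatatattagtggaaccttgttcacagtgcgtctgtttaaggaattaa
The Sdc1 stretch held 3 GC boxes, which start 155, 138 and 83 bases before the start of transcription, and a TATA core read on both strands in overlapping positions 43 and 42 bases before it. None of the 4 letter strings occurred in the Lum stretch, and neither stretch held TGACG. Vcan, whose standing probe set was not called, had 2 entries with overlapping stretches. One of these held TGACG 46 and 27 bases and TATAA 32 bases before its start, and no other stretch of the matched members held TGACG. Over the 33469 windows of this length in the table, 30.5% held GGGCGG, 24% TATAA, 18.2% TGACG and 1.59% TGACGTCA. These matches describe the letters only.

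Between the doses, none of the 17 probe sets passed the test of 100 nM against 10 nM (limma), and none had an unadjusted p under 0.05. The background was 1.43% of all tested probe sets called and 12.3% with an unadjusted p under 0.05. With 6 and 3 arrays the intervals were wide. For Has2 100 nM minus 10 nM was -0.18 (95% interval -0.50 to 0.14), for Sdc1 0.10 (-0.13 to 0.33), for Sdc2 0.17 (-0.071 to 0.42), for Lum -0.07 (-0.25 to 0.12) and for Dcn 0.05 (-0.091 to 0.20).

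The replicates were also divided into 1, 2 and 6 against 3, 4 and 5. This split was taken from an earlier component analysis that is not shown here, and no label names it as a batch. The direction of the 5 called genes at 100 nM was the same within both sets, each with 3 arrays a group. These genes were called on the arrays of both sets, so the same direction in each was likely beforehand and is no independent check. In replicates 1, 2 and 6 the changes were 0.53 for Has2, 0.42 for Sdc1, 0.57 for Sdc2, -0.32 for Lum and -0.20 for Dcn, and none passed the test there. In replicates 3, 4 and 5 they were 0.27, 0.65, 0.59, -0.37 and -0.17 in the same order of genes, and Sdc1 and Sdc2 passed (adjusted p = 0.00699 and 0.042).

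The wider pathway was described with 11 lists that cover hyaluronan turnover, proteoglycan core proteins, versican-cleaving proteases and the enzymes that build and sulfate the chains. Besides the members they hold 103 genes, of which 64 were tested. Of those 64, 8 rose and 1 fell at 100 nM, with a median change of 0.15, and 8 rose and 2 fell at 10 nM, with a median of 0.20. Over all genes the medians were 0.02 and 0.06, and 12.1% and 8.67% were called in either direction. The lists, too, were chosen with earlier results of these data known, so these shares are no test of them.

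Of the chondroitin and dermatan sulfate enzymes, 4 of 11 tested genes were higher and none lower at each dose. The shares called over all genes, in either direction, were 8.67% at 10 nM and 12.1% at 100 nM. Chpf, which encodes a chondroitin polymerising factor, averaged 10.06 in control, 10.57 at 10 nM and 10.60 at 100 nM. It rose by 0.51 ± 0.085 at 10 nM (adjusted p = 0.00181) and by 0.54 ± 0.069 at 100 nM (adjusted p = 2.63e-04), with no overlap with the controls at either dose. Such a separation held for 9.15% of tested probe sets at 10 nM and 3.48% at 100 nM. Csgalnact2, whose enzyme starts chondroitin chains, rose by 0.53 and 0.49 (adjusted p = 0.00875 and 0.00464). Chpf2 rose by 0.42 and 0.45, but its second probe set changed by -0.01 and -0.11 and was not called. Papss1, a synthase of the sulfate donor, rose at 100 nM alone (0.21; adjusted p = 0.0464), which of the 15 fits with an array left out was kept only without control replicate 6 or 100 nM replicate 1 or 3 (elsewhere up to 0.0961). It also ended without the filter, after quantile normalization again, in a fit of the 2 groups alone and with the set-aside arrays (0.0595 to 0.1095). Chsy1, a chondroitin synthase, was called at 10 nM alone (0.25; adjusted p = 0.0187), and its change at 100 nM was 0.14. At 10 nM the calls of Chpf2, Csgalnact2 and Chsy1 ended without replicates 1 or 3, 2, and 2 or 3 of that dose (adjusted p up to 0.0956, 0.0503 and 0.109). With the set-aside arrays Chpf changed by 0.17 at 10 nM and was called at neither dose (adjusted p = 0.5204 and 0.0505), and Chsy1 was not called at 10 nM (0.149). With probe sets averaged Chpf2 changed by 0.20 and 0.17 and was not called.

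In the linker list, whose enzymes build the short sugar stem shared by chondroitin and heparan sulfate, B3gat3 showed the largest rise among the enzymes called. It averaged 7.43 in control, 8.20 at 10 nM and 8.36 at 100 nM, a rise of 0.78 ± 0.15 (adjusted p = 0.0049) and 0.93 ± 0.12 (adjusted p = 3.85e-04) with no overlap. Such a separation held for 9.15% of tested probe sets at 10 nM and 3.48% at 100 nM. B3gat3 encodes the glucuronosyltransferase that completes the stem. Of the 5 tested linker genes Xylt2, a xylosyltransferase that starts it, also rose at 100 nM (0.38; adjusted p = 0.03), although its other 2 probe sets changed by 0.14 and 0.08 and were not called. Leaving out control replicate 2, 3, 4 or 5 or 100 nM replicate 2, 5 or 6 ended its call (up to 0.0625), as did no filter (0.0588), a fit of the 2 groups alone (0.0545) and the set-aside arrays (0.0715), and with its probe sets averaged the change was 0.20.

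Of 15 heparan sulfate enzymes, 2 rose at each dose and none fell, counted by standing probe set. Of all genes 8.67% were called at 10 nM and 12.1% at 100 nM, in either direction. A further probe set of Hs2st1, a sulfotransferase gene, rose at both doses (1383724_at; 0.57 at 10 nM and 0.38 at 100 nM; adjusted p = 0.00114 and 0.00463), while its standing probe set changed by 0.08 and 0.30 and was not called. Ext2, a subunit of the chain polymerase, rose at 100 nM (0.29 ± 0.059; adjusted p = 0.00679). Extl3, which starts heparan sulfate chains, rose by 0.48 at 10 nM (adjusted p = 0.0257) and by 0.35 at 100 nM (adjusted p = 0.0443), the call at 100 nM being kept only without control replicate 1 or 6, 10 nM replicate 1 or 2, or 100 nM replicate 1 (elsewhere up to 0.0962). That call also ended without the filter (0.0853), after quantile normalization again (0.0528), in a fit of the 2 groups alone (0.0618) and with the set-aside arrays (0.163), and the change was 0.10 in replicates 1, 2 and 6 and 0.60 in replicates 3, 4 and 5. Glce, an epimerase that modifies the chains, rose at 10 nM (0.30; adjusted p = 0.011), a call lost without 10 nM replicate 3 (0.0854); with the set-aside arrays the change was 0.11. Without control replicate 4 or 10 nM replicate 2 or 3 the Extl3 call at 10 nM ended (up to 0.1396), as it did without the filter (0.0512) and in a fit of the 2 groups alone (0.0688), and with the set-aside arrays the change was 0.32. None of the 8 tested glypican and basement membrane proteoglycan genes was called by its standing probe set, and the glypican gene Gpc3 changed by 0.14 at 10 nM and 0.09 at 100 nM. A further probe set of the glypican gene Gpc6, 1385876_at, fell at 10 nM by 0.91 (adjusted p = 0.0243), where its standing probe set changed by 0.08. These further probe sets of Hs2st1 and Gpc6, and the one of Hapln1 named with the hyaluronan binding proteins, were chosen after their values were seen.

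**Figure D4:**
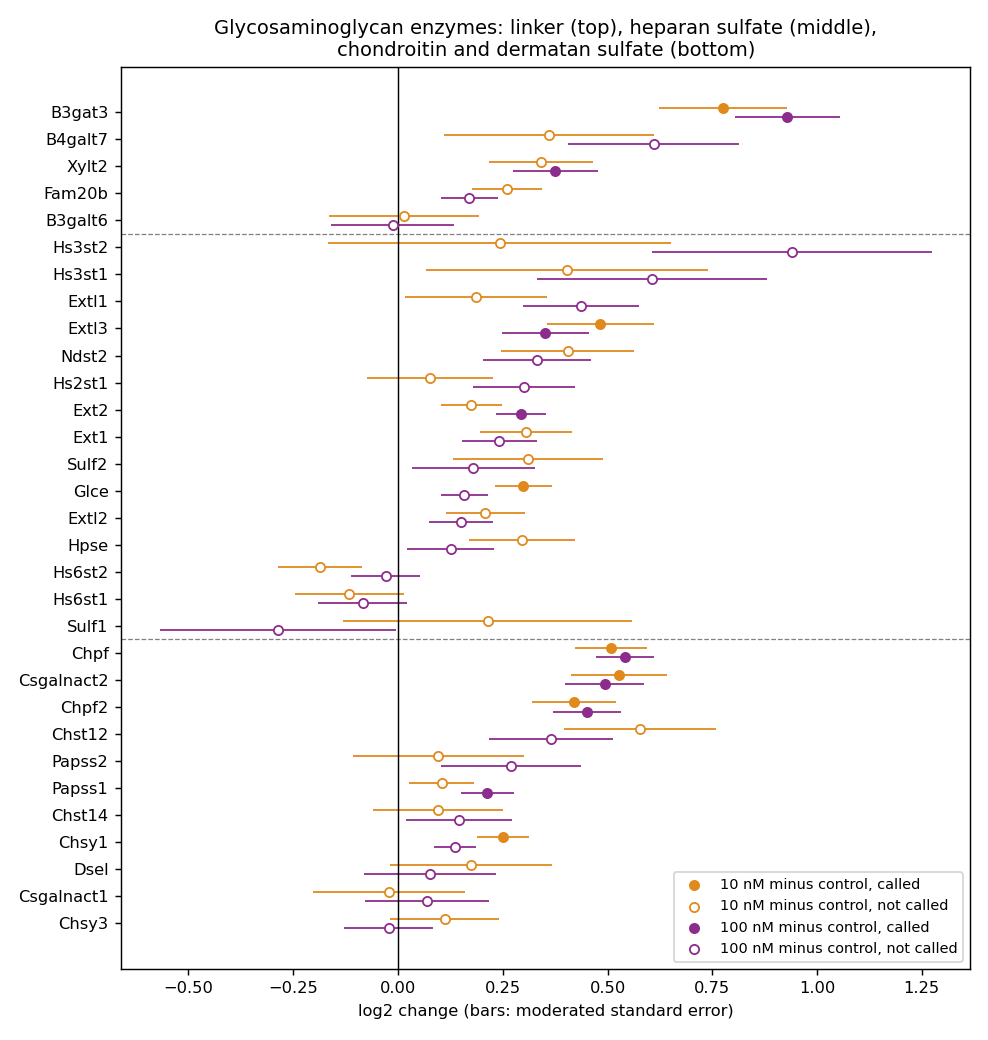
Log2 change against control (horizontal axis) of the tested linker, heparan sulfate and chondroitin and dermatan sulfate enzyme genes at 10 nM and 100 nM Insl3, by standing probe set with limma's moderated standard error. Filled points passed the test; all of them lie to the right of 0, led by B3gat3 with 0.78 at 10 nM and 0.93 at 100 nM.

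Among the 5 tested proteases of the Adamts family that can cut versican, Adamts5 fell at both doses. It averaged 7.99 in control, 7.45 at 10 nM and 7.16 at 100 nM, a change of -0.55 ± 0.13 (adjusted p = 0.0149) and -0.83 ± 0.11 (adjusted p = 2.65e-04). Its second probe set fell as well, by 1.68 at 10 nM and 1.02 at 100 nM (adjusted p = 0.00855 and 0.0418). The call of the standing probe set at 10 nM rested on replicates 1 and 3 of that dose, each of which ended it when left out (highest adjusted p = 0.0805). Adamts4 moved the other way at 10 nM (0.61; adjusted p = 0.0351), and its change of 0.42 at 100 nM was not called (adjusted p = 0.0709). The Adamts4 call ended without control replicate 1, 2 or 3 or 10 nM replicate 2 or 3 (up to 0.172), without the filter (0.0757) and with the set-aside arrays (0.134). In the hyaluronan degradation list Cemip, whose protein is needed for hyaluronan breakdown in human skin fibroblasts, averaged 4.30 in control, 4.04 at 10 nM and 4.21 at 100 nM. It fell at 10 nM by 0.26 (adjusted p = 0.0271), a call that ended without control replicate 5 or 10 nM replicate 1, with another variance model (0.0718), after quantile normalization again (0.0646) and with the set-aside arrays (-0.17; 0.167). The lowest and the median control and the highest 100 nM array had the same Cemip value, 4.28. None of the 6 tested hyaluronan receptor and binding protein genes was called by its standing probe set. A further probe set of Hapln1, whose protein links versican to hyaluronan, fell at 100 nM by 0.43 (1384541_at; adjusted p = 0.00922), where the standing probe set changed by -0.43 (0.0978) and the remaining one by -0.03.

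Markers of other cell types moved at 100 nM beside these genes. Of 7 tested erythroid markers 6 fell, and their mean ran from 6.43 to 8.97 in control, 6.28 to 7.85 at 10 nM and 4.16 to 6.79 at 100 nM. Of 4 granulocyte markers 3 fell, with means of 6.10 to 10.19, 6.74 to 9.43 and 2.98 to 6.35 over the same doses. Of 12 leukocyte and macrophage markers 4 fell by standing probe set (Ptprc, Cd68, Mrc1 and Lcp1), with means of 9.73 to 10.04, 9.48 to 10.09 and 9.24 to 9.91, and Cd163 and Itgam were below the filter. A second Ptprc probe set, 1370603_a_at, changed by -0.26 at 100 nM and was not called (limma, adjusted p = 0.514). None of these 3 lists held a call at 10 nM against control.

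Of 6 endothelial markers Kdr and Cldn5 rose at both doses, with list means of 6.36 to 6.65 in control, 6.59 to 6.95 at 10 nM and 6.74 to 7.42 at 100 nM. The other 4 were not called, and the median change of the list was 0.14 at 10 nM and 0.04 at 100 nM. Of 8 mesothelium and epithelium markers, the cell types in which Sdc1 is best known, none was called. Their mean ran from 6.25 to 8.01 in control, 7.05 to 7.33 at 10 nM and 6.47 to 7.34 at 100 nM, the epithelial cadherin gene Cdh1 averaged 2.35, 2.14 and 2.16, near the floor, and Epcam was below the filter. Of 6 mesenchyme markers Thy1, a surface protein of fibroblasts, rose at both doses (0.89 and 1.34). Its second probe set, 1369651_at, rose by 1.47 at 100 nM (limma, adjusted p = 0.023), but its change of 1.05 at 10 nM was not called (0.181). The part of blood and endothelial cells in the changes of the member genes was not tested.

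Of 10 skeletal muscle markers, Myod1 fell at 100 nM, and of 6 smooth muscle markers Myh11 rose and Tagln fell at 10 nM. The mean of the skeletal muscle list ran from 11.91 to 12.26 in control, 11.99 to 12.15 at 10 nM and 11.65 to 12.37 at 100 nM, and that of the smooth muscle list from 7.24 to 7.92, 7.89 to 8.17 and 7.51 to 8.50. Their part in the member genes was not tested either.

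For the 5 genes called at 100 nM, the 2 other genes with the most similar pattern were taken by the root mean square difference of log2 values over the 15 arrays, after each gene was centred on its own mean. For Sdc1 they were Sec61a1 (0.103), a subunit gene of the secretory translocon, and Serpinf1 (0.111), which encodes a secreted serpin. For Sdc2 they were Olfml3 (0.108) and P4ha1 (0.115), a collagen prolyl hydroxylase gene. Tnfrsf1a (0.145) and Cd276 (0.162) were nearest to Has2, Nme7 (0.0883) and Smad1 (0.0973) to Lum, and Stk25 (0.0376) and Lsm12 (0.0738) to Dcn. The members' own SDs over the arrays were 0.29 for Sdc1, 0.31 for Sdc2, 0.31 for Has2, 0.20 for Lum and 0.13 for Dcn, so the smallest distance belongs to the gene that varied least.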

How the data were processed

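The deposited table holds expression values per probe set for 17 arrays, taken here as log2 and made by the authors with GCRMA, per the submitters' processing notes. The GCRMA version, the log base and the arrays normalized together are not given in the sources used here. Per the labels' protocols, 150 ng of total RNA was labelled with a 3′ in vitro transcription kit, so signals come mainly from 3′ ends.

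Computed from these values: probe sets above 2.285 (40th percentile) in at least 3 of 15 arrays, without 57 manufacturer's controls, gave 18938. These were fitted with limma 3.58.1 in R 4.3.3, the 3 groups together, 2-sided, with Benjamini-Hochberg adjustment over all of them. Errors of changes are moderated SEs; intervals are 95%. The fit was tested on simulated data. Of 31099 probe sets, 20832 had 1 gene in the platform annotation, 436 several. Between 32% and 35.7% of an array's values lay within 0.01 of the floor, where changes are compressed. The labels call the replicates biological. The members, lists and the rule for named genes (called pathway genes, up to 4 a list and comparison, with Sdc3, Sdc4, Has1, Has3, Gpc3 and 2 nearest genes a called member) were chosen with earlier results of these data known. Alternatives were filters, variance model, quantile normalization, samples, replicate block and sets, probe set averaging and leaving out each array.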

Additional observations from a re-analysis of the deposited data

Results flagged for a closer look

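In the control group, replicate 6 stood apart for Sdc2 probe set 1382189_at, at 10.094 against 9.662 to 9.824 in the other 5 controls. This was the 1 value singled out among 34 groups of arrays checked for a sample far from the others, where chance singles out about 1 in 20. The nearest 100 nM array was at 10.11, and without this control the Sdc2 call at 100 nM held.

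The within-array difference between Vcan probe sets 1388142_at and 1371232_a_at differed between the doses, with 100 nM minus 10 nM at -0.708 log2 units.

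In the set-aside 10 nM replicates, which entered only the fits with all 17 arrays, Has2 read 9.693 and 9.803, above the highest control of 9.252, and Sdc2 (1382189_at) read 10.157 and 10.329, above the highest control of 10.094. The other Sdc2 probe sets did not both do so: 1370166_at read 9.209 and 9.309, below the highest control of 9.484, and 1370167_at read 8.320 and 7.927, against a highest control of 8.179.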

How the results depend on the processing

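The count of called member probe sets, 8 of 17 at 100 nM against control, was 7 to 9 with no filter, a stricter filter, another variance model, quantile normalization again, the replicate block (8) or the replicate sets as a term, 6 with only the 2 groups, 5 with all 17 arrays, 5 when probe sets of a gene were averaged (9 genes tested), 0 in replicates 1, 2 and 6 alone, 4 in replicates 3, 4 and 5 alone, and 6 to 8 when 1 array was left out. The count at 10 nM, 6, was 4 to 8 under the alternatives that kept all arrays compared (4 with the replicate block, 1 higher and 3 lower, against 4 higher and 2 lower), 3 with averaged probe sets and 0 in replicates 1, 2 and 6 alone. It was 1 to 9 without 1 array: 2 without 10 nM replicate 1, 1 without replicate 2 and 3 without replicate 3. Fewer arrays entered each of these. Between the doses the count stayed 0 of 17 in every fit. Over all probe sets, 2065 at 100 nM became 1008 with 17 arrays, 200 in replicates 1, 2 and 6 alone and 1442 to 2616 without 1 array. At 10 nM 2004 became 559 in replicates 1, 2 and 6 alone and 1020 to 2495 without 1 array, and between the doses 271 became 3 to 619. Called pairs of probe sets, 1039 at 10 nM, were 746 to 1069 without 1 array; at 100 nM 118 became 10 with 17 arrays and 29 to 209 without 1 array.

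Of 836 refits of 33 called values none changed sign, and 183 lost the call. Most refits shared nearly all their arrays with the main fit, so a change of sign was unlikely beforehand. Signs turned for values that had not been called. At 100 nM against control, replicates 1, 2 and 6 alone gave 0.0163 for Cd44 (1368921_a_at), -0.0767 for Bgn and -0.0529 for the Vcan difference, and replicates 3, 4 and 5 alone gave -0.0156 for Cd44 (1387952_a_at), 0.158 for Vcan 1388142_at and 0.0444 for 1371233_at. At 10 nM, averaging gave 0.0182 for Cd44, the 17 arrays gave -0.1564 for Vcan 1388142_at, -0.2879 for Bgn and -0.6529 for Gpc3, and replicates 1, 2 and 6 gave -0.0332 for Sdc4. Between the doses, replicates 1, 2 and 6 gave 0 for Has2 and 0.0722 for Cd44. The 17 arrays gave 0.0438 for Vcan 1388142_at, 0.0758 for Lum, 0.3846 for Bgn and 0.0554 for Sdc1 (1376062_at), which was 0.0098 with the replicate block and 0.0031 with the sets as a term. Without 1 array, Cd44 (1387952_a_at) ran from -0.0472 to 0.1307 at 100 nM and from -0.1488 to 0.0411 between the doses, Sdc1 (1376062_at) from -0.0408 to 0.0404 between the doses, Sdc4 from -0.0032 to 0.2287 at 100 nM and -0.0071 to 0.2248 at 10 nM, and Sdc3 from -0.1018 to 0.0123 at 10 nM. The causes were not tested.

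Replicate numbers are shared by the groups but did not pair them: correlations of same-numbered deviations were 0.0068 to 0.199 at 100 nM against control, where 2 of 6 samples correlated best with their own number, -0.0433 to 0.1312 at 10 nM (0 of 3) and -0.0708 to 0.1864 between the doses (1 of 3). At 100 nM against control every best match lay within the same replicate set, 1, 2 and 6 or 3, 4 and 5. At 10 nM and between the doses replicate 1 matched number 3, of the other set. With the replicate block the 10 nM calls of Has2, Sdc1 (1367849_at), Sdc2 (1382189_at) and Dcn and the 100 nM call of Dcn were lost, as were those of Csgalnact2, Chsy1, Extl3, Adamts4 and Cemip at 10 nM and of Extl3 and Papss1 at 100 nM (adjusted p = 0.0531 to 0.121 over these 12). Calls gained with the block were Vcan 1371232_a_at and 1388054_a_at (lower) and Xylt2 (higher) at 10 nM. Vcan 1388265_x_at was gained as lower at 100 nM (adjusted p = 0.0228 to 0.0401 over these gains).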

Other observations

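The 2 set-aside arrays at 10 nM entered only the fits with all 17 arrays. Replicates 4 and 5 read 11.63 and 11.55 for Sdc1 (1367849_at), where the highest control was 11.64, and 13.57 and 13.02 for Lum, where the lowest control was 13.70. For Dcn they read 14.38 and 14.21, below the lowest control of 14.57. For Bgn they read 12.55 and 11.88, against 13.01 to 13.67 in control. In replicate 4 the Vcan probe sets 1371232_a_at, 1388054_a_at and 1388265_x_at read 11.62, 11.32 and 7.064, where the lowest controls were 13.41, 13.12 and 9.03.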
